A study of Mus musculus with 8 samples.

Results

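The genes described here are those of the transforming growth factor beta (TGF-beta) ligands Tgfb1, Tgfb2 and Tgfb3, of their receptors Tgfbr1, Tgfbr2 and Tgfbr3, and of Tgfbi, an extracellular matrix protein named for its induction by TGF-beta. They were chosen by name: every probe set whose single annotated symbol is one of these 7 genes was taken, which gave 9 probe sets of 12488 in the table and 7 genes of 8252, with 2 each for Tgfb3 and Tgfbi and 1 for each other gene. All mice were C57/Bl6 neonates at day 6 after birth, with no treatment or allele named. One group is lung: RNA of pooled whole lung. The other is tips: RNA of the tips of secondary alveolar septa, the ridges that subdivide the air spaces at this age, cut from frozen sections by laser capture and pooled over many animals. Each group had 2 RNA samples, from experiments 1 and 2 on different litters, and each RNA was hybridised to 2 arrays at different times, so that 8 arrays stood for 4 RNA samples. Groups were taken from the sample titles, since the descriptions of the tip samples also name whole lung. The tips are part of the lung they were compared with.

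TGF-beta ligands are secreted in a latent form, bound to their own propeptide and often to a latent TGF-beta binding protein in the matrix, and must be released before they can signal. The released dimer binds the type II receptor Tgfbr2, which phosphorylates the type I receptor Tgfbr1, and Tgfbr1 in turn phosphorylates Smad2 and Smad3. These join Smad4 and enter the nucleus. Tgfbr3, or betaglycan, is a co-receptor that presents ligand, above all Tgfb2, to Tgfbr2. In the developing lung the pathway is known for its part in branching, myofibroblast differentiation and matrix deposition during septation.

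The values are signals per probe set on a linear scale, brought to a common trimmed mean on every array. Background here means the 95th percentile, on each array, of 19 control probe sets that match bacteria or yeast. Lung arrays had backgrounds of 314 to 568 and tip arrays of 487 to 1244, so a dim transcript was harder to detect in tips. The Gapdh control gave a ratio of 3' to middle signal of 0.794 to 1.07 on lung arrays and of 1.70 to 2.72 on tip arrays, while the same ratio of the Actb control was higher on lung arrays, at 16.5 to 24.8, than on tip arrays, at 9.23 to 12.4. The part of these differences in the results below was not tested. Of the marker lists of lung cell types, summed signals on the arrays were 84472 to 96942 in lung and 143964 to 206843 in tips for epithelium, 58877 to 65795 and 69802 to 102809 for endothelium, 103120 to 147811 and 166829 to 287294 for fibroblasts and contractile cells, and 51858 to 75856 and 31528 to 43209 for macrophages. Sftpc (surfactant protein C), Pecam1 (endothelium), Acta2 (smooth muscle actin), Pdgfra (fibroblasts), Csf1r (macrophages) and Epcam (epithelium) differed by 1.95, 1.41, 0.09, -0.83, 0.61 and -0.80 on the log2 scale, tips minus lung, of which Sftpc and Pecam1 passed the threshold explained next. Within lists the genes went both ways. The counts below are read against all 5642 genes by their brightest probe set, of which 29.7% were called, 14.6% higher and 15.1% lower. Of 8 markers of alveolar and airway epithelium tested, 3 were called higher and 1 lower. Those called higher were Sftpc and the airway markers Scgb1a1 (1.49) and Foxj1 (1.68), and the one called lower was Hopx of alveolar type I cells (-1.76). Of 10 endothelial markers 4 were called higher and 2 lower, the latter being Tek (-1.72) and Emcn (-1.64). Of 11 markers of fibroblasts and contractile cells 5 were called higher and 0 lower, with Tagln (1.97), Actg2 (1.59), Myh11 (1.32) and Des (1.10) among the 5. Of 9 macrophage markers 0 were called higher and 2 lower, which were Ctss (-3.05) and Mrc1 (-1.62). These 22.2% called compare with 29.7% of all genes, and the median of the 9 was 0.25. The mean signal of Ctss was 34692 ± 7992 in lung and 4041 ± 444 in tips (SD, n = 2), so it weighs heavily in the summed signals. Of 5 blood markers 1 was called higher, S100a9 (1.69), and 1 lower, Ptprc (-1.95), which is 40% against 29.7% of all genes. Summed signals of the blood list were 9237 to 34500 in lung and 18781 to 79263 in tips. Those of mesothelium were 1854 to 2291 and 1519 to 4095, and its 1 marker tested was not called. The markers named beyond the first 6 were chosen after their values were seen. The part of these markers in the results below was not tested, and in such pooled tissue fewer cells of a type and less RNA per cell cannot be told apart.

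Among the ligands, receptors and Tgfbi, 1 probe set was called, that of Tgfbi, which was higher in tips. Tgfb2 and Tgfb3 were measured above background on every array. The signal of Tgfb2 was lower in tips without passing the threshold, and that of Tgfb3 was a little higher, again without passing. The receptors and Tgfb1 were at or near background. Differences are log2 differences, tips minus lung, from limma on log2(signal + 150), with arrays of an RNA averaged and n = 2 RNA samples per group. The threshold is a Benjamini-Hochberg adjusted p under 0.05 over the 7453 probe sets tested, those with a mean log2 value at or above the 40th percentile. Of the 9 probe sets, 4 were bright enough to be tested and 1 was called. Over all tested probe sets 28.3% were called, 14.5% higher and 13.7% lower in tips, so that 1 of 4 is near the background share.

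**Figure D1:**
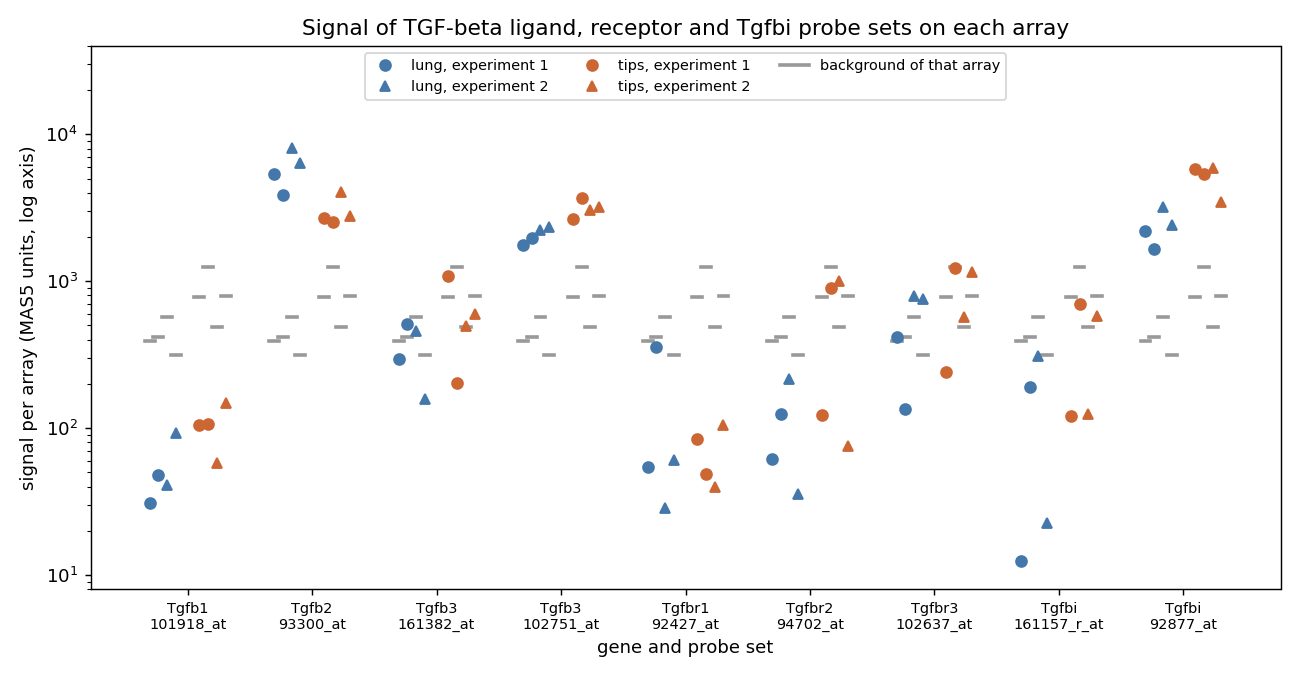
Signal (MAS5 units, log axis) of each of the 9 probe sets on each of the 8 arrays; blue points are lung and orange points tips, circles experiment 1 and triangles experiment 2, and each grey dash is the background of the array beside it. Tgfb2 and the brighter probe sets of Tgfb3 and Tgfbi lie above background on all 8 arrays, while Tgfb1, Tgfbr1 and the other Tgfbi probe set lie under it on all 8.

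Tgfb2 is the ligand that depends most on betaglycan to bind the type II receptor, and it had a single probe set. The lung arrays read 5393 and 3884 in experiment 1 and 8123 and 6364 in experiment 2. The tip arrays read 2707 and 2547 in experiment 1 and 4052 and 2775 in experiment 2. Within each experiment both tip arrays lay below both lung arrays, but across experiments the groups overlapped, since the higher tip array of experiment 2 exceeded the lower lung array of experiment 1. The means were 5941 ± 1842 in lung and 3020 ± 556 in tips (SD, n = 2), which is -0.92 ± 0.33 in log2 terms (SE; limma adjusted p = 0.0654), with a 95% interval of -1.67 to -0.17 before adjustment for multiple testing. Experiment 1 gave -0.77 and experiment 2 gave -1.07. With the experiment number as a replicate block, which pairs tips and lung processed together, the adjusted p from limma was 0.0363, where 32.9% of probe sets were called. Median centring gave -1.46 (limma adjusted p = 0.0198, with 23.9% of probe sets called). The adjusted p from limma was also under the threshold, at 0.0172, with all 8 arrays and the RNA as a random block (36.7% called), and at 0.0269 without the tip RNA of experiment 2 (44.6% called). Over the 20 alternatives it ranged up to 0.407, the value without the lung RNA of experiment 2 (7.46% called).

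Tgfb3, a ligand made by mesenchyme and epithelium of developing organs, differed the other way. Its brighter probe set read 1775 and 1955 on the lung arrays of experiment 1 and 2229 and 2349 on those of experiment 2. The tip arrays read 2673 and 3659 in experiment 1 and 3054 and 3222 in experiment 2. All 4 tip arrays were above all 4 lung arrays, as in 24.1% of all probe sets tested; for 42.0% the groups did not overlap in one direction or the other. The means were 2077 ± 300 in lung and 3152 ± 20 in tips (SD, n = 2), and the log2 difference was 0.57 ± 0.31 (limma adjusted p = 0.184) with a 95% interval of -0.13 to 1.26. It was 0.70 in experiment 1 and 0.43 in experiment 2. The median over all probe sets tested was 0.35, and relative to it Tgfb3 stood at 0.22 and Tgfb2 at -1.27. Median centring left Tgfb3 at 0.03. Its dimmer probe set was above background on 1 of 4 lung arrays and 2 of 4 tip arrays. It read 157 to 513 in lung and 204 to 1086 in tips, fell under the filter, and gave 0.48 (limma adjusted p = 0.466 when all probe sets were tested).

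Tgfb1, the ligand best known for its part in fibrosis, could not be followed on this array. Its probe set read 31.0, 47.9, 41.0 and 92.4 on the lung arrays and 105, 106, 57.5 and 149 on the tip arrays, each under the background of its array. These readings bound the signal from above and give no fold. No comparison of the ligand levels with each other is made, since probe sets differ in how strongly they respond.

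**Figure D2:**
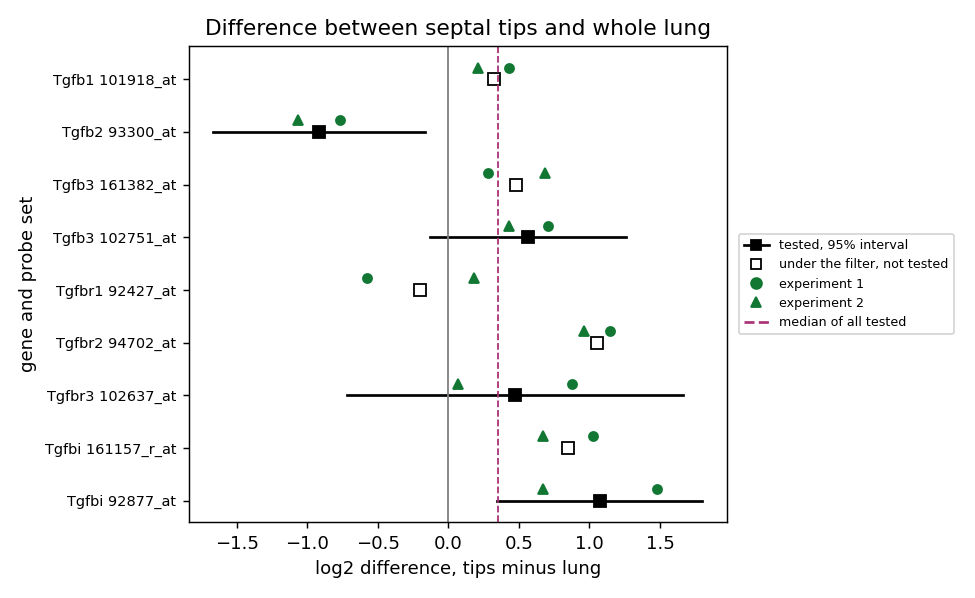
Log2 difference of tips minus lung for each probe set; filled squares with bars are tested values with 95% intervals, open squares are probe sets under the filter, and green circles and triangles are experiments 1 and 2. Tgfb2 lies at -0.92 and the brighter Tgfbi probe set at 1.07, on either side of the dashed median of all tested probe sets at 0.35.

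The signalling receptors were not detected well enough to compare. Tgfbr1, the type I receptor kinase, read 54.7, 357, 28.4 and 60.7 on the lung arrays and 84.8, 48.7, 39.6 and 105 on the tip arrays, under background on all 8. Tgfbr2, the type II receptor kinase, was under background on every lung array, with readings of 61.8, 125, 217 and 35.6. On the tip arrays it read 123 and 899 in experiment 1 and 998 and 75.2 in experiment 2, and the single reading above background was 998. The arrays of each tip RNA thus disagreed widely between themselves. The log2 difference was 1.05 (limma adjusted p = 0.0902 when all probe sets were tested), and no lower limit for a fold can be given, because the mean log2 value of the tip arrays did not exceed that of the lung arrays' backgrounds.

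Tgfbr3, the betaglycan co-receptor, passed the filter but its arrays scattered. It read 414 and 135 in lung of experiment 1 and 790 and 760 in lung of experiment 2. In tips it read 241 and 1237 in experiment 1 and 572 and 1153 in experiment 2. It was above background on 3 of 4 lung arrays and 2 of 4 tip arrays, and the groups overlapped. The log2 difference was 0.47 ± 0.53 (limma adjusted p = 0.514), with a 95% interval of -0.72 to 1.66. On array 1 of each RNA alone it was -0.45 and on array 2 alone 1.40, and its sign also turned with quantile normalization, median centring and cyclic loess and without the lung RNA of experiment 1.

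Tgfbi is secreted and binds collagens and integrins. At its brighter probe set the lung arrays read 2199 and 1650 in experiment 1 and 3226 and 2396 in experiment 2, and the tip arrays read 5773 and 5406 in experiment 1 and 5861 and 3459 in experiment 2. All tip arrays were above all lung arrays, as in 24.1% of all probe sets tested, with the narrowest gap in experiment 2. For 42.0% the groups did not overlap in either direction. Mean signals were 2368 ± 627 in lung and 5125 ± 657 in tips (SD, n = 2). The log2 difference was 1.07 ± 0.32 (limma adjusted p = 0.0369), with a 95% interval of 0.35 to 1.80, and stood 0.72 above the median of all tested probe sets. It was 1.48 in experiment 1 and 0.67 in experiment 2. The call held under 10 of 20 alternatives. It was lost with median centring, where the difference was 0.53 (limma adjusted p = 0.292). Without the lung RNA of experiment 1 the value was 0.82 (limma adjusted p = 0.271), in a fit that called 4.68% of all probe sets, and without that of experiment 2 it was 1.33 (0.0939). Without the tip RNA of experiment 1, where 36.5% were called, it was 0.92 (limma adjusted p = 0.0544). On array 1 alone and array 2 alone it was 1.08 and 1.06 (limma adjusted p = 0.0589 and 0.0752), with 16.5% and 19.7% of all probe sets called. The other Tgfbi probe set was under background on all 8 arrays, at 12.4 to 309 in lung and 122 to 695 in tips. These readings give no direction.

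**Figure D3:**
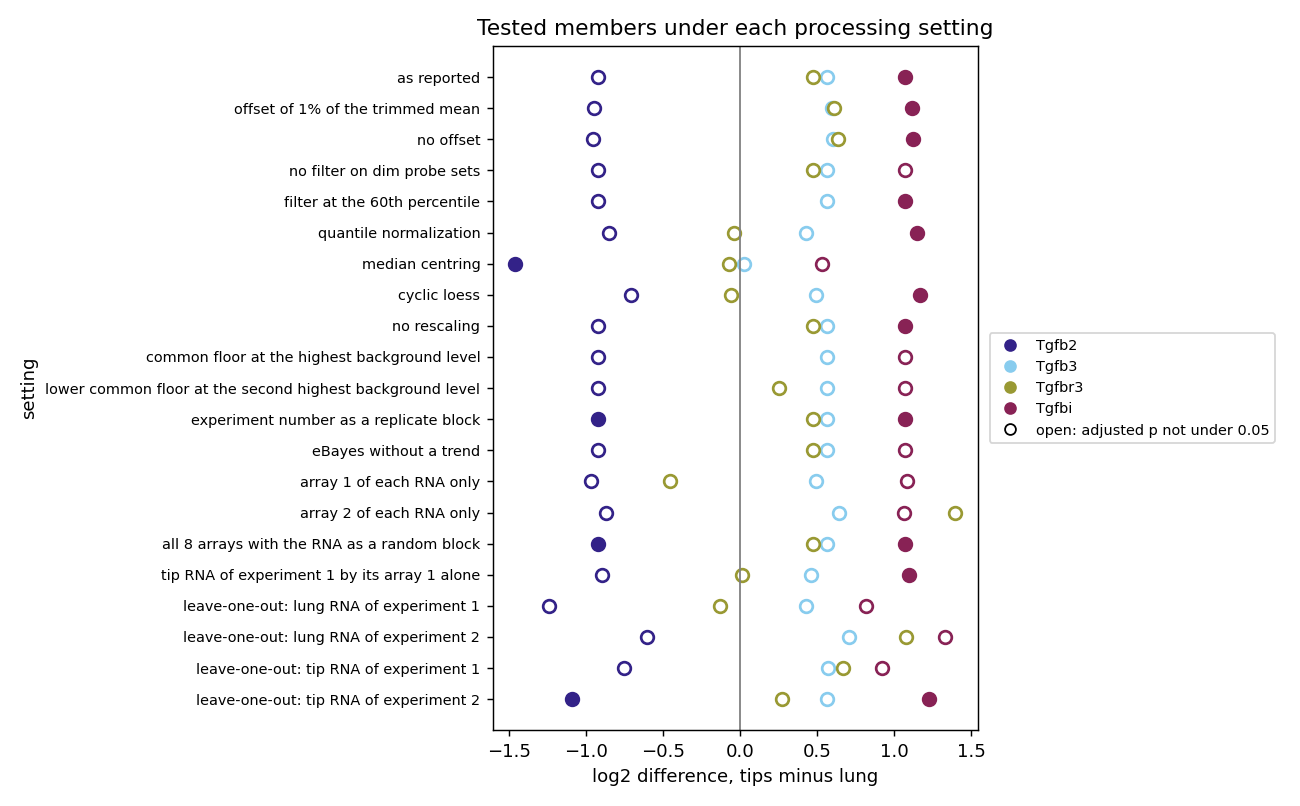
Log2 difference of tips minus lung for the 4 tested probe sets under the reported setting and each of the 20 alternatives (18 for Tgfbr3, which fell under the filter in the others); filled points have an adjusted p under 0.05. Tgfbi stays between 0.53 and 1.33 and Tgfb2 between -1.46 and -0.60, while Tgfbr3 falls on both sides of 0.

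The signals of Tgfb2, Tgfb3 and Tgfbi were also set against each other within each array, which removes the scaling of the array; this was done after the values had been seen. The level of such a ratio has no meaning, so only its change between groups is given. The log2 ratio of Tgfb3 to Tgfb2 was 1.55 higher in tips than in lung, with an SD between RNA samples of 0.25 in each group, and experiments 1 and 2 gave 1.55 and 1.56. The log2 ratio of Tgfbi to Tgfb2 was 2.07 higher in tips, 2.35 in experiment 1 and 1.80 in experiment 2. For both ratios all tip arrays lay above all lung arrays. How many other pairs of probe sets separate in this way was not computed. Of single probe sets tested, the groups did not overlap for 42.0%. That of Tgfbi to Tgfb3 was 0.52 higher in tips, and its arrays overlapped. With 2 RNA samples against 2, the exact two-sided permutation test gave p = 0.333 for each of the 3 ratios, the smallest it can give, so none could pass the threshold. The ratios are therefore a description of these arrays, and they do not say which of the signals changed.

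**Figure D4:**
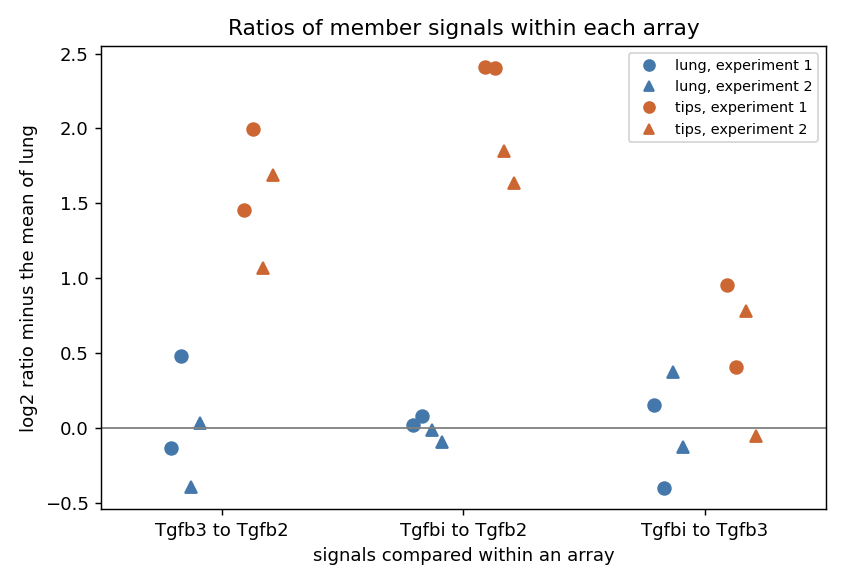
Log2 ratio of the signals of 2 genes on the same array, minus the mean ratio of lung, for the pairs Tgfb3 to Tgfb2, Tgfbi to Tgfb2 and Tgfbi to Tgfb3; blue is lung, orange tips, circles experiment 1 and triangles experiment 2. The mean of tips lies 1.55, 2.07 and 0.52 above that of lung, and groups overlap in the pair Tgfbi to Tgfb3.

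The probe sets of other genes whose log2 values followed Tgfbi most closely over the 8 arrays were those of AU020206 (Pearson r = 0.982), Orc2, a subunit of the origin recognition complex (0.977), and Ppp4c, the catalytic subunit of a serine/threonine phosphatase (0.975). They are the highest of 6649 compared, and the arrays share RNA samples and batches, so r is a description. Their own differences were 1.18 (limma adjusted p = 0.0294), 1.25 (0.0711) and 3.49 (0.00232). Mean signals of Orc2 and Ppp4c were 331 and 340 in lung, within the range of the lung backgrounds (314 to 568), and 992 and 4514 in tips. Their place among the tested probe sets thus rests on the tip arrays, and their differences give no fold.

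Other genes of the pathway are given from lists drawn up by their known roles, with each gene represented by its brightest probe set, and are read against all 5642 genes, of which 29.7% were called, 14.6% higher and 15.1% lower, with a median difference of 0.31. At an unadjusted p under 0.05 the shares of all genes were 25.2% higher and 19.7% lower. Of 64 pathway genes tested, 11 rose and 6 fell. Of the 6 that fell, 5 were in the list of intracellular transduction. Of 10 genes in that list tested, 2 rose and 5 fell, with a median of -0.94. Smad2, which the activated type I receptor phosphorylates, gave 4881 ± 63 in lung and 796 ± 41 in tips (SD, n = 2), fell by 2.60 ± 0.32 (SE; limma adjusted p = 0.00143), and was above background on 2 of 4 tip arrays. Smad4, the partner that Smad2 and Smad3 share, fell from 9288 ± 433 to 2305 ± 409, a difference of -1.97 ± 0.29. Tab2, an adaptor of the kinase TAK1, fell by 2.33, and Strap and Ppm1a, which act against the pathway by holding inhibitory Smad7 at the receptor and by removing phosphate from Smads, fell too, Strap by 2.08 and Ppm1a from 6492 ± 840 to 2156 ± 32. Smad2, Smad4, Tab2 and Strap passed under all 20 alternatives, and Ppm1a under 18. Fkbp1a, which binds the type I receptor, and Tgfb1i1, a focal adhesion protein induced by TGF-beta, rose by 1.05 and 0.92, under 13 and 9 alternatives. Smad3 was under the filter.

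In the list of latency and activation, calls were in the higher direction. Of 15 tested, 3 rose and 0 fell by limma, and 5 and 0 had an unadjusted p under 0.05, with a median of 0.42. The 3 called make up a smaller share than the 29.7% of all genes. At the unadjusted threshold 25.2% of all genes were higher and 19.7% lower. Plat, the tissue plasminogen activator, whose product plasmin can release latent TGF-beta, rose from 1250 ± 83 to 6745 ± 1959 (SD, n = 2), a difference of 2.26 ± 0.33 (limma adjusted p = 0.00255) that passed under all 20 alternatives. Ltbp2, a fibrillin-binding member of the latent TGF-beta binding protein family, rose by 1.76, and Bgn, a proteoglycan that can bind TGF-beta, by 1.43, under 14 and 17 alternatives. A second probe set of Bgn gave 0.51 (limma adjusted p = 0.199). Itgb5 was not called at its brightest probe set (1.22, limma adjusted p = 0.0634) but was at another (2.33, 0.0159). Itgav and Itgb1 were not called at any probe set. Ltbp1, Ltbp3 and Ltbp4, family members that bind the latent ligand, gave 0.35, -0.30 and -0.39 (limma adjusted p = 0.582, 0.473 and 0.501).

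Of 7 co-receptors and other receptors of the superfamily tested, 2 rose and 0 fell by limma, with the same counts at an unadjusted p under 0.05, and the median was 0.62. The 28.6% called are near the 29.7% of all genes, and at the unadjusted threshold 25.2% of all genes were higher. Eng, or endoglin, the co-receptor of endothelium, rose from 77511 ± 17117 to 299413 ± 16680 (SD, n = 2), a difference of 1.99 ± 0.50 (limma adjusted p = 0.0201) that passed under 14 of 20 alternatives; without the lung RNA of experiment 1 or 2 the adjusted p was 0.269 or 0.126. The tip signal of Eng lay far above the 95th percentile of all probe sets on the tip arrays, 6218 to 6845. Whether signal follows transcript level at such brightness was not tested. Nrp1, a co-receptor for several growth factors, gave opposite calls at its probe sets, 1.77 ± 0.44 at the brighter (limma adjusted p = 0.0186) and -1.60 ± 0.39 at the other (0.0182). The type I receptor genes Acvrl1 and Acvr1b gave -0.05 and 0.62, and the type II receptor genes Acvr2a, Acvr2b and Bmpr2 gave -0.65, 0.57 and 0.71 (limma adjusted p between 0.160 and 0.930 for these 5). The other probe sets of Acvrl1 gave 0.54 and 0.19, and a second one of Acvr2a gave 0.89 (limma adjusted p = 0.149). Acvr1 and Bmpr1b were under background on all 8 arrays, and Bmpr1a was so on all tip arrays and above it on 2 of 4 lung arrays.

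Of 6 inhibitors and repressors tested, 1 rose and 0 fell by limma, and 4 and 0 had an unadjusted p under 0.05, a threshold that 25.2% of all genes passed in the higher direction, with a median of 0.97. The 16.7% called compare with 29.7% of all genes. Smad6, an inhibitory Smad acting mainly on bone morphogenetic protein signals, rose by 1.05 ± 0.32 (limma adjusted p = 0.0377), a call that held under 9 of 20 alternatives. Among those that ended it were quantile normalization (0.87), median centring (0.51) and cyclic loess (0.91), and leaving out either lung RNA. Smad7, the inhibitor that TGF-beta itself induces, gave -0.93 ± 0.50 (limma adjusted p = 0.178). Nedd4l was not called at its brightest probe set (0.98, limma adjusted p = 0.0637) but was at another (2.04, 0.0157). Usp15 gave 1.04 (limma adjusted p = 0.0578) at its brightest and -0.48 (0.469) at another.

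Of 29 transcripts known to be induced by TGF-beta, 5 rose and 1 fell, with a median of 0.27, so that 20.7% were called against 29.7% of all genes. Cdkn1a, a cell cycle inhibitor, did not exceed background on any of the 4 lung arrays. With those backgrounds in place of its lung signal, the tip signal was 3.85-fold higher. The tip signal was left as read, on arrays with backgrounds of 487 to 1244, so this is no strict lower bound. The lung signal of Cdkn1a was 164 ± 10 (SD, n = 2), so it passed the filter on mean log2 value only through its tip arrays. Its place among the 5 depends on that selection. The fitted difference, which is no bound, had a limma adjusted p of 0.00538, and the call held under 15 of 19 alternatives. It ended with the common floor at the highest background (0.35, limma adjusted p = 0.258), with the lower floor (0.89, 0.0580), and when either lung RNA was left out (0.0720 for experiment 1 and 0.0598 for experiment 2). The second probe set of Cdkn1a gave 0.99 (limma adjusted p = 0.172). Tagln, an actin-binding protein of smooth muscle, rose by 1.97 ± 0.35 and Tnc, the matrix glycoprotein tenascin-C, by 1.90 ± 0.36. A second probe set of Tnc gave 0.93 ± 0.34 (limma adjusted p = 0.0685). Bgn and Tgfb1i1, which are also in lists above, completed the 5. Col1a2 and Col3a1 were not called at their brightest probe sets but were higher at another, by 1.29 and 1.12 (limma adjusted p = 0.0122 and 0.0304). A further probe set of Col3a1 gave 0.002 (limma adjusted p = 0.996). Col5a1, a fibrillar collagen chain, gave -1.07 ± 0.30 (limma adjusted p = 0.0302) and, at its second probe set, 0.98 ± 0.32 (0.0478) the other way. The first of these calls held under 13 of 20 alternatives, and the value was -0.48 with quantile normalization (limma adjusted p = 0.313) and -0.45 with cyclic loess (0.332). Without the lung RNA of experiment 1 or 2 its adjusted p from limma was 0.202 or 0.0949. Smad7, Ccn2 (connective tissue growth factor) and Col1a1, which are common readouts of the pathway, gave -0.93, -0.62 and 0.69 (limma adjusted p = 0.178, 0.237 and 0.202).

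**Figure D5:**
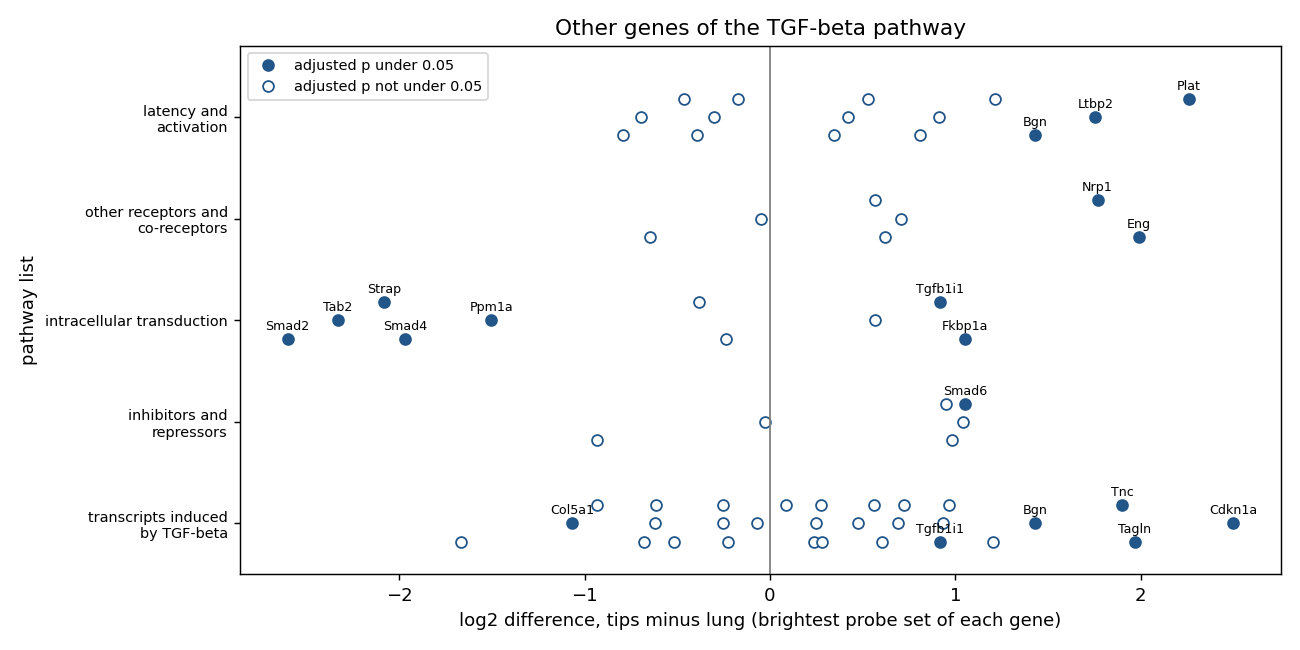
Log2 difference of tips minus lung of each gene, by its brightest probe set, in 5 lists of the TGF-beta pathway; filled points, with their names, have an adjusted p under 0.05. Smad2, Smad4, Tab2, Strap and Ppm1a lie left of 0 among the genes of intracellular transduction, and Plat, Ltbp2 and Bgn lie right of 0 among those of latency and activation.

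How many probe sets stood on each side depended on the scaling of the arrays. As reported, 1084 were called higher and 1022 lower in tips. Quantile normalization split them 618 to 1012, median centring 271 to 1512, and cyclic loess 814 to 1138, and the median difference of all probe sets was 0.03, -0.19 and 0.06 in place of 0.35. Without the lung RNA of experiment 1 it was 72 and 277, and without that of experiment 2 it was 173 and 383.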

How the data were processed

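The deposited value is an intensity per probe set; the submitters' processing notes name MAS5 without a version, and detection calls and a genome build are not given in the sources used here. RNA isolation used PicoPure, amplification RiboAmp and labelling biotin, per the labels' protocols. The labels of 3 of 4 lung arrays name no amplification, while the design text says that RNAs were amplified in parallel. Each array was rescaled to the common trimmed mean of 1500.9 (2% left out at each end, 1500.6 to 1501.2 as deposited), 150.09 was added and log2 taken, which understates differences of dim probe sets. The 66 control probe sets and those under the 40th percentile of mean log2 value were left out. Of the probe sets, 10855 carried 1 symbol, updated by gene ID to the GRCm38.p6 RefSeq table for 10839; 396 carried several and 1237 none.

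Arrays of an RNA were averaged, and limma 3.58.1 in R 4.3.3 (lmFit, eBayes with an intensity trend, Benjamini-Hochberg) was fitted to 4 RNA samples, with 2 residual and 7.05 prior degrees of freedom. The number of RNA samples limits the precision: the median standard error was 0.40. Replicate spread here is that between pools of different litters. Per the design text tips and lung of an experiment were processed in parallel, so the experiment number pairs them. The deviations from the group means correlated at 0.0452 across probe sets. The procedure was also run on simulated data with independent noise and few changed probe sets. Those settings differ from these data, so that run does not vouch for the calls here. Named were all member probe sets, up to 4 called genes per list and direction, the other receptors, 6 markers, and the 3 probe sets most like each called member; second probe sets and a few further genes were added after their values were seen. The members and lists were chosen with earlier results of these data known.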

Additional observations from a re-analysis of the deposited data

Results flagged for a closer look

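In 2 of the 18 sets of 4 arrays examined (each of the 9 probe sets in each group), 1 array stood apart from the others by Dixon's criterion; chance gives about 1 in 20. For the brighter probe set of Tgfbi in tips, array 2 of experiment 2 read 3459 against 5406 to 5861 on the other tip arrays, and was still above every lung array. For Tgfbr1 in lung, array 2 of experiment 1 read 357 against 28.4 to 60.7 on the others, and was itself under the background of its array.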

How the results depend on the processing

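The counts of calls, the member probe sets that passed the filter and the called pathway genes were recomputed under 20 alternatives (18 for Tgfbr3 and 19 for Cdkn1a), 2 of which, the lower common floor and the tip RNA of experiment 1 by its array 1 alone, were chosen after seeing the data. The within-array ratios, the markers, the second probe sets and the pathway genes that were not called were not followed one by one under these, and the member probe sets under the filter were tested only without it. Where a value changed, the cause was not tested. Tgfb3 kept its direction and missed the threshold under all 20. Tgfb2 kept its direction and passed under 4: median centring (-1.46), the experiment as a replicate block (-0.92), the RNA as a random block over 8 arrays (-0.92) and, among the fits without 1 RNA sample, which gave -1.23 to -0.60, that without the tip RNA of experiment 2. Tgfbi missed the threshold, at an unchanged 1.07, with no filter (adjusted p = 0.0523), with the common floor (0.0724) or the lower floor (0.0542) and without a trend (0.0651). It also missed it at 0.53 with median centring and at 1.08 and 1.06 on arrays 1 and 2 alone; without 1 RNA sample it gave 0.82 to 1.33. With the tip RNA of experiment 1 by its array 1 alone it passed (1.10, adjusted p = 0.0487). Tgfbr3 turned to -0.035, -0.0685 and -0.0566 with quantile normalization, median centring and cyclic loess and to -0.45 on array 1 alone, and gave -0.13 to 1.08 without 1 RNA sample; it fell under the filter at the 60th percentile and with the common floor, where it has no value. The number of called probe sets of these genes was thus 0 higher under those 7 alternatives, 1 lower under median centring and both block fits, and from 0 to 1 in either direction without 1 RNA sample. Over all probe sets, 618, 271, 255, 511 and 654 were higher with quantile normalization, median centring, the common floor, array 1 and array 2, and 72 to 1866 without 1 RNA sample; 571 were lower with the common floor, and 277 to 1458 without 1 RNA sample. Of the pathway genes, 4, 18, 4, 6 and 18 rose with median centring, cyclic loess, the common floor, array 2 and the random block, in place of 11, and 1 to 20 without 1 RNA sample, the fewest without the lung RNA of experiment 1. With 1 RNA sample left out, the lone sample is assumed to vary like the other group. The background, up to 1244 on array 2 of the tip RNA of experiment 1, limits what can be said of Tgfb1, Tgfbr1 and Tgfbr2.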
